A study of Mus musculus with 17 samples.

Results

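The 88 gene bodies described here carried at least 0.85 times as much RNA polymerase II (Pol II) signal in an RPAP1-depleted library as in its control, with both of 2 antibodies. They were taken from 36172 genes. Of these, 6304 (17.4%) had an allowed name and a control gene body signal of at least 40 with each antibody, and the 88 make up 1.4% of those 6304. The ratio was reached at 7.84% of them with total Pol II and at 4.2% with Ser5P. Predicted genes named Gm with a number, Rik clones, microRNAs, mitochondrial genes, and olfactory and vomeronasal receptors were left out by name. The same gene body values that chose the members are given here as a description and not as evidence, and the promoter values come from the same 4 libraries.

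The study used primary embryonic fibroblasts from C57Bl/6 mice. Cells were infected with a lentivirus carrying a non-targeting hairpin (SCR) or 1 hairpin against Rpap1 (shRPAP1 #5), selected in puromycin and harvested at day 3. Chromatin of 3 lines was pooled, and total Pol II or its form with phosphate on serine 5 of the C-terminal domain (Ser5P) was immunoprecipitated, which gave 1 SCR and 1 shRPAP1 library for each antibody. Also in the series are 12 RNA-seq samples and an input library, not analysed here. There were no replicates, so "higher" and "lower" compare single libraries, without any test. The 2 antibodies were applied to the same pools and do not replicate each other. In pooled chromatin, fewer cells with polymerase on a gene and less polymerase per cell cannot be told apart.

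Pol II is recruited to promoters, is phosphorylated at serine 5 early in transcription, and often pauses before it moves into the gene body. RPAP1 is a protein that associates with Pol II. Signal over a gene body is therefore read as polymerase that is elongating through the gene, while Ser5P is usually strongest near the start.

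Values are deposited as coverage signal over the gene body, with no unit given, and are not a number of reads per base. No scaling of the libraries to a common depth is given in the sources used here. On the deposited scale the median log2 ratio of shRPAP1 over SCR among the 6304 genes was -0.71 with total Pol II and -0.90 with Ser5P. Total Pol II was at least 1.5-fold lower at 63.4% of them and Ser5P at 80%. Over 1760 olfactory and vomeronasal receptor genes, taken as background, mean gene body signal instead went from 7.08 to 12.5 with total Pol II and from 5.75 to 10.0 with Ser5P. Of 10 fibroblast markers 8 had SCR signal over 40, no epithelial, endothelial, muscle, nervous system or pluripotency marker did, and no marker was among the 88. Of 5 blood markers 2 did, and the summed gene body signal of that list was 357 in SCR against 191 in shRPAP1 for total Pol II and 643 against 246 for Ser5P; the part of such cells in the results was not tested. The body of Rpap1 itself held 14.3 in both total Pol II libraries, and 25.9 in SCR and 20.4 in shRPAP1 with Ser5P, under the minimum for this set. Since the hairpin targets the transcript, polymerase on Rpap1 is no check of its depletion.

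The sequences below show what kinds of gene were in the set. Promoters of 4 members with known inducible expression are given first, from RefSeq on GRCm38.p6, each from 250 bases before to 50 bases after the annotated start and read along the gene. That of Chac1 lies at chr2:119350992-119351291 on the + strand, and its capitals mark TGATGNAA, a pattern of the kind bound by ATF4, and CCAAT, both searched on either strand. That of Rsad2 (chr12:26456403-26456702, - strand) and that of Trim30a (chr7:104465144-104465443, - strand) have capitals at the core of an interferon-stimulated response element, 2 copies of GAAA with 2 bases between them, on either strand. The promoter of Sqstm1 (chr11:50210771-50211070, - strand) has capitals at TATAAA and GGGCGG.
Chac1: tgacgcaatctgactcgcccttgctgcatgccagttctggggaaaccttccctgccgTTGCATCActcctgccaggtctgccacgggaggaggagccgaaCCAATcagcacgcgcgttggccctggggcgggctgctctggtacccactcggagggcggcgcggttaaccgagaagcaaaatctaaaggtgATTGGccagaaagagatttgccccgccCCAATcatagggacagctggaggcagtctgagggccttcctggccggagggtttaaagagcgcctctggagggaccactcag
Rsad2: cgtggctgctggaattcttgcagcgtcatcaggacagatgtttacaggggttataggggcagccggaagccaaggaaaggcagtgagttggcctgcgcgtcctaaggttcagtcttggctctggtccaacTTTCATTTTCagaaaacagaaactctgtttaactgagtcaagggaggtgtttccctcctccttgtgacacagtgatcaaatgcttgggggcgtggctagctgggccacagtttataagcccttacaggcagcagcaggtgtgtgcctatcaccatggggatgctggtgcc
Trim30a: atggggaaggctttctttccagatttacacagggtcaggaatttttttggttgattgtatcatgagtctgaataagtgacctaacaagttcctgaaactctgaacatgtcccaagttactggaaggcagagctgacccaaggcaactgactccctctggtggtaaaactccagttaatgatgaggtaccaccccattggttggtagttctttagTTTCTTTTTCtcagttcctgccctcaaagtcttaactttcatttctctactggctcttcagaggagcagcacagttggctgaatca
Sqstm1: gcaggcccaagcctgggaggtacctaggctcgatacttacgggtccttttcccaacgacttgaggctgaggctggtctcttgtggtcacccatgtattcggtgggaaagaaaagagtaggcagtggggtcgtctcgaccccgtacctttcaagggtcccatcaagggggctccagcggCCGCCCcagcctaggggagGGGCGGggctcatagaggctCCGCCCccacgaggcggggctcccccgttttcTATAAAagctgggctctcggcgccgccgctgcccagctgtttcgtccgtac

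Other members carry sequence that occurs many times in the genome, which matters because a read of 40 bases may then not have 1 place of origin. One word of 32 bases, on the + strand of GRCm38.p6, is shown for each of 5 such genes, chosen as the most frequent sampled word with at most 100 copies. The word of Speer7-ps1 (chr5:15686523-15686554) occurs 93 times in the assembled chromosomes, that of Rhox2e (chrX:37532057-37532088) 64 times, that of Zfp442 (chr2:150415840-150415871) 69 times, that of Zfp433 (chr10:81708568-81708599) 23 times and that of Prl2c3 (chr13:12798941-12798972) 9 times.
Speer7-ps1: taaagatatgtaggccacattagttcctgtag
Rhox2e: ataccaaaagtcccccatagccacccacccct
Zfp442: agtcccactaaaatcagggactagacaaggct
Zfp433: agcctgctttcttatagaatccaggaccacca
Prl2c3: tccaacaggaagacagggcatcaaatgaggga

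Most of the 88 gene bodies lay close to an equal signal in both libraries rather than above it. In shRPAP1, 24 were higher with both antibodies (0.381% of the 6304), 14 with total Pol II alone, 16 with Ser5P alone, and 34 with neither. The median log2 ratio of the members was -0.0037 with total Pol II and -0.011 with Ser5P, with extremes of -0.23 and 1.55, and of -0.23 and 1.85. With total Pol II, 9 members were at least 1.5-fold higher (0.286% of the 6304), and with Ser5P 15 were (0.349%). The 5 that passed this fold with both antibodies (0.0793%) were AY036118, Yam1, Speer7-ps1, Sfi1 and the clone-named RP24-355N14.3. With the receptor background set equal between libraries, which lowers each log2 ratio by 0.82 for total Pol II and 0.80 for Ser5P, these 5 were the only members that still met the rule. Every direction stated here is on the deposited scale.

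**Figure D1:**
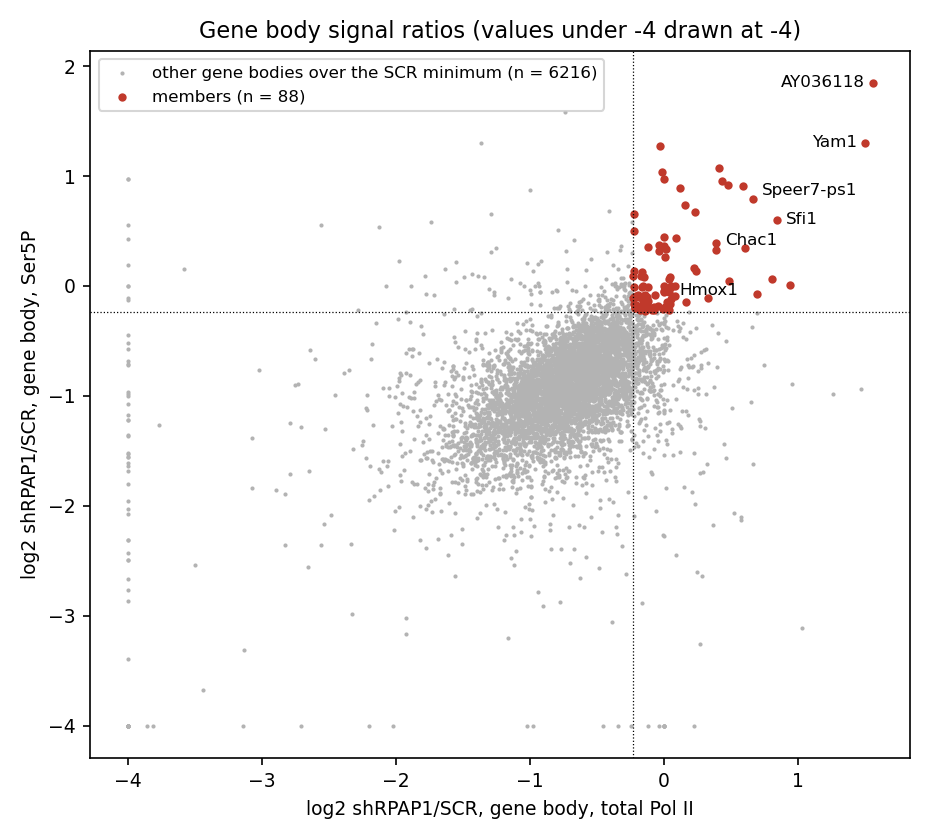
Gene body log2 ratio of shRPAP1 over SCR with total Pol II (x axis) and Ser5P (y axis) for 6304 genes, 1 point per gene, with the 88 members in red and dotted lines at a ratio of 0.85. The other 6216 genes centre on -0.71 and -0.90, and the members fill the upper right corner that the rule defines. Directions are on the deposited scale and 5 members remain with receptor genes set equal.

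Counting error is wide for part of the set. A length was found for 72 members, from which read equivalents were computed, and 59 of these had at least 20 in each SCR library. The exact 95% counting interval of the ratio lay above the median of the 6304 genes for 56 members with total Pol II and 60 with Ser5P, against 12.6% and 17.1% of all 5988 genes with a length. With both antibodies it did so for 56 (8.07% of genes). The rule itself put every member's ratio above those medians, so this excess follows from the selection. An interval above 0, that is, above equal signal, was found with both antibodies for AY036118, Speer7-ps1 and Sfi1 (0.0501% of genes). It was found with total Pol II alone for Zscan30, Ccdc122 and Pisd-ps1, 6 members in all with that antibody (0.167% of genes). With Ser5P alone it was found for Rhox2e, Zfp442, Prl2c3, Rsad2, Fam135a and Ifi204, 9 in all (0.184%). The other side of 0 held an interval for 5 members with at least 1 antibody, among them Sqstm1 with Ser5P and Eps15 with both. These intervals cover counting error only.

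The set leaned towards genes with modest signal in SCR. Members had a median SCR body signal of 56.8 with total Pol II and 52.96 with Ser5P, against 70.4 and 93.5 in the other 6216 genes. In the shRPAP1 libraries the medians were 57.1 and 59.7 for members and 44.1 and 49.8 for the others. SCR signal is the denominator of the ratios that chose the members. Low SCR and high shRPAP1 values are therefore favoured by the rule itself. SCR signal was below 60 with both antibodies in 44 members (50%) and in 15.6% of the 6304 genes. Among the 1652 genes with at least 100 in SCR with both antibodies, 10 (0.605%) were members, and among the 4652 others 1.68% were. Those 10 were Hist1h4f, Sqstm1, Fth1, Hmox1, Sfi1, RP23-81C12.2, Zfp125, AY036118, Yam1 and Imp3. Gene length was similar, with a median of 16894 bases in members and 16474 in the others.

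**Figure D2:**
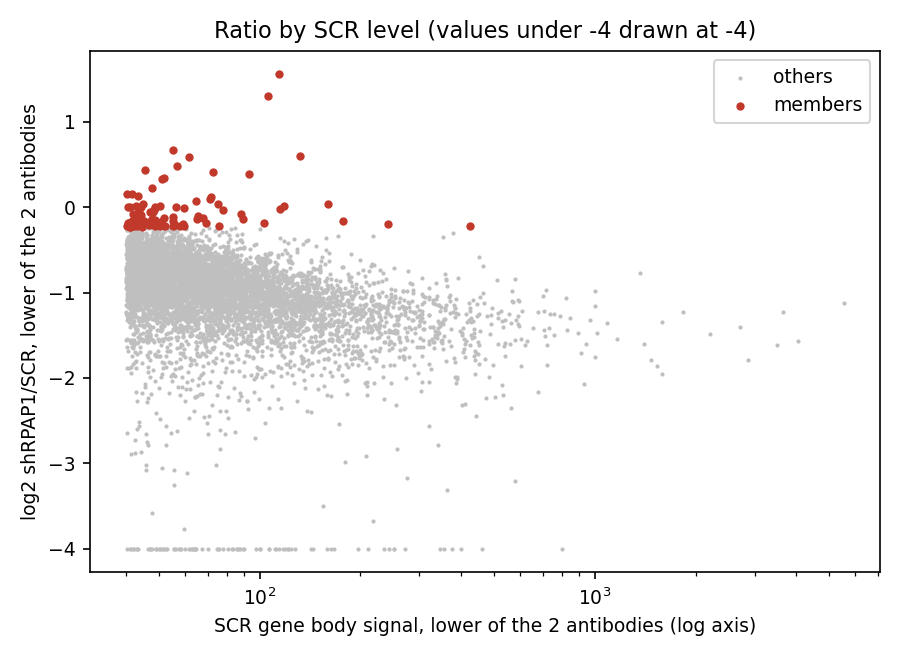
SCR gene body signal (x axis, log scale, lower of the 2 antibodies) against the log2 ratio of shRPAP1 over SCR (y axis, lower of the 2 antibodies), 1 point per gene, members in red. Members lie mostly between 40 and 100 on the x axis, and 10 of 1652 genes above 100 are members. Directions are on the deposited scale and 5 members remain with receptor genes set equal.

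The balance of the 2 antibodies in SCR also differed. The log2 ratio of Ser5P over total Pol II in the SCR gene body had a median of 0.01 in members and 0.38 in the other genes. Across members the shRPAP1 over SCR ratio was higher with Ser5P than with total Pol II in 48 of 88 (54.5%), against 31.5% of the 6304 genes. The rule required the same minimum ratio with both antibodies, although the median ratio of the 6304 genes was lower with Ser5P. The balance in SCR uses the same SCR values that stand in those ratios. The rule itself can therefore shift both comparisons, and a difference beyond the selection was not tested. The 2 log2 ratios of a member differed by a median of 0.16. They differed by more than 0.5 in 12 members, of which 3 had 20 read equivalents in each SCR library.

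Near the thresholds, Mrps26 and Eef1e1 were inside with total Pol II ratios of 0.8502 and 0.8504, and Glce (0.848) and Stam (0.847) were outside. With Ser5P, Atl2 (0.851) was inside and Zfp830, Ctsl and Hsph1 (0.846, 0.846 and 0.845) were outside. Anapc10 entered with an SCR total Pol II signal of 40.15, and Nqo2 missed with 39.9.

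The oxidative stress and metal group had the largest share of members among the gene lists with more than 4 eligible genes. Of 12 genes of the NRF2, heme and metal response over the SCR minimum, 3 were members (25%, against 1.4% of all), and each had signal well above most of the set. The list as a whole had a median log2 ratio of -0.34 with total Pol II and -0.47 with Ser5P, against -0.71 and -0.90 over all 6304 genes. Of the 12, 3 were at least 1.5-fold lower with total Pol II and 5 with Ser5P, and none was 1.5-fold higher. Where 4 signal values are given as pairs, the first pair is SCR and shRPAP1 with total Pol II and the second pair SCR and shRPAP1 with Ser5P.

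Hmox1 encodes heme oxygenase, which breaks down heme and is induced by oxidative stress. Its gene body held 160 in SCR against 165 in shRPAP1 for total Pol II, while Ser5P gave 336 and 355. The libraries were nearly equal, and the counting intervals of both log2 ratios (0.04, -0.35 to 0.43, and 0.08, -0.18 to 0.35) included 0. At the promoter the same gene held 867 and 603 for total Pol II and 1985 and 1372 for Ser5P, with log2 ratios of -0.52 and -0.53 whose intervals also included 0 (-1.39 to 0.34 and -1.09 to 0.03).

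Fth1 encodes the ferritin heavy chain, which stores iron. Its body held 177 in SCR against 183 in shRPAP1 for total Pol II, while Ser5P gave 482 and 431. Total Pol II was nearly equal and Ser5P slightly lower in shRPAP1, with intervals of -0.41 to 0.52 and -0.46 to 0.12. Its promoter was lower in shRPAP1, at 1064 and 592 for total Pol II (-1.75 to -0.07) and 2358 and 1514 for Ser5P (-1.19 to -0.14). The light chain gene Ftl1, which was no member, held 512 and 353, and 1522 and 844, over its body.

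Sqstm1 encodes p62, an autophagy receptor that also acts on the NRF2 pathway. It had the second-highest SCR signal of the set with 242 in SCR against 218 in shRPAP1 for total Pol II, while Ser5P gave 491 and 430. Both shRPAP1 values were lower, by 0.15 on the log2 scale (-0.40 to 0.11) and by 0.19 (-0.38 to -0.01). Its promoter held 1069 and 327 for total Pol II (log2 ratio -1.71, -2.87 to -0.75) and 2252 and 1778 for Ser5P (-0.34, -0.84 to 0.17), so that interval left out 0 with total Pol II and included it with Ser5P. Other genes of this list were not members: the metallothionein gene Mt1 held 134 and 177 with total Pol II but 518 and 385 with Ser5P, and Txnrd1, a thioredoxin reductase, held 157 and 101, and 225 and 142.

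Chac1, which encodes a glutathione-degrading enzyme induced downstream of ATF4, was the only member among 19 eligible genes in the list for the unfolded protein response and integrated stress response. Its body held 92.9 in SCR against 122 in shRPAP1 for total Pol II, while Ser5P gave 224 and 295. The shRPAP1 value was higher with each antibody by a log2 ratio of 0.39 (-0.43 and -0.40 with receptor genes set equal), but the read equivalents were few (27 and 36, and 66 and 86) and both intervals, -0.35 to 1.19 and -0.10 to 0.87, included 0. At the promoter printed above, total Pol II was 361 and 422, Ser5P was 1442 and 929, and both intervals included 0 (-0.87 to 1.55 and -1.33 to 0.02). The other genes of the list mostly followed the 6304: medians were -0.68 and -0.97, and 12 and 16 of 19 were at least 1.5-fold lower. Trib3, another ATF4 target, came closest, with 82.1 and 68.7, and 171 and 148. Atf4 itself held 707 and 368, and 1915 and 704.

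Interferon-inducible genes gave 3 members from different chromosomes. Rsad2, which encodes the antiviral protein viperin, was the only member of 25 eligible genes in the interferon list. Its body held 71.0 in SCR against 75.7 in shRPAP1 for total Pol II, while Ser5P gave 103 and 139. Total Pol II was nearly equal (0.09, -0.31 to 0.51) and Ser5P was higher in shRPAP1 (0.44, 0.12 to 0.76), though lower (-0.36) with receptor genes set equal. Its Ser5P promoter signal was 218 and 369, about 8 and 13 reads, with an interval that included 0 (-0.68 to 2.18).

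The Trim30, Ifi200 and Phf11 clusters are families of interferon-inducible genes lying side by side, and were added as a list after their values had been seen. Of 10 eligible genes, 2 were members, and medians were -0.31 with total Pol II and -0.06 with Ser5P. Ifi204, of the Ifi200 family of DNA-binding proteins, held 73.3 and 67.3 for total Pol II and 67.7 and 86.7 for Ser5P. Its total Pol II was slightly lower and its Ser5P higher in shRPAP1 (-0.12 and 0.35, intervals -0.47 to 0.22 and 0.02 to 0.68). Trim30a held 70.4 and 61.6 for total Pol II and 69.4 and 65.6 for Ser5P, with intervals that included 0 (-0.40 to 0.02 and -0.29 to 0.12). Close relatives just missed: Ifi205 held 69.6 and 55.6, and 46.3 and 59.5, and Trim30d held 73.6 and 66.5, and 74.0 and 61.0. In this family 48% of the sampled 32-base words of Ifi204 and 42% of those of Trim30a occurred more than once in the genome. Of the interferon list, all 24 genes other than Rsad2 had less signal in shRPAP1 with both antibodies, by log2 ratios from -1.10 to -0.18 with total Pol II and from -1.19 to -0.0057 with Ser5P. Ifit2 and Ifit3 were near equal with Ser5P (-0.0057 and -0.09). Larger differences were seen at the antiviral gene Ifit1 (252 and 154, and 296 and 213) and Irf7, a transcription factor of the response (166 and 79.5, and 364 and 181). The interferon list as a whole had medians of -0.47 and -0.74.

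Lgals3, the gene of galectin-3, was the only member of 14 eligible galectin, annexin and S100 genes, whose medians were -1.10 and -1.27. Its body held 74.9 in SCR against 76.8 in shRPAP1 for total Pol II, while Ser5P gave 105 and 110. The 4 values showed no separation beyond counting error (0.04, -0.38 to 0.47, and 0.07, -0.29 to 0.42). Its annotated promoter was listed at the lowest value in both total Pol II libraries.

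**Figure D3:**
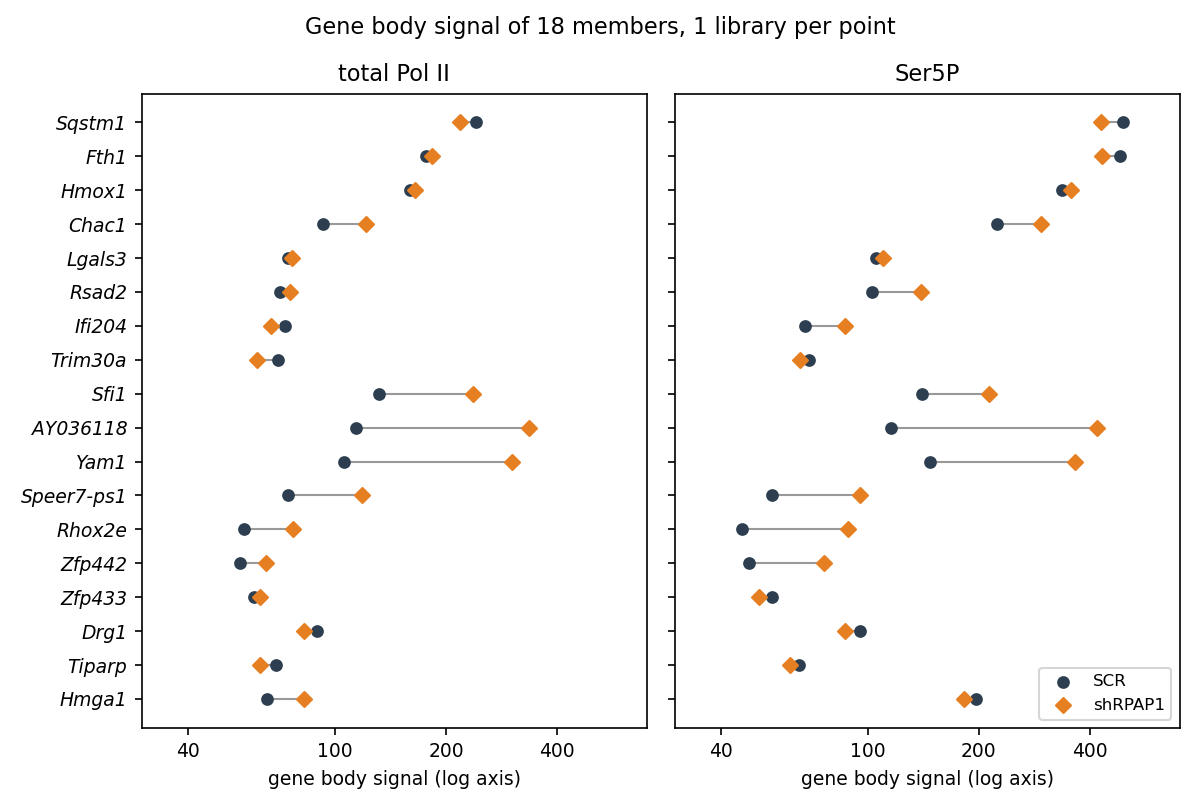
Gene body signal (x axis, log scale) of 18 members with total Pol II (left) and Ser5P (right), 1 point per library, circles for SCR and diamonds for shRPAP1, with no error bars since each group is 1 library. Hmox1, Fth1, Sqstm1 and Lgals3 lie close to equal, and AY036118, Yam1, Speer7-ps1, Sfi1 and Rhox2e lie higher in shRPAP1 on the deposited scale, of which Speer7-ps1, Sfi1 with Ser5P and Rhox2e with total Pol II turn lower with receptor genes set equal.

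The largest ratios of the set were at AY036118 and Yam1. AY036118 is annotated as a long noncoding RNA and held 114 in SCR against 336 in shRPAP1 for total Pol II, while Ser5P gave 116 and 418. Both shRPAP1 values were higher (log2 ratios 1.55 and 1.85), and with about 7 and 22 read equivalents, and 8 and 27, the intervals were wide (0.38 to 3.12 and 0.58 to 3.10). Its length is uncertain: RefSeq gives 50274 bases at chr17:39848112-39898385 on GRCm38.p6 and GENCODE 923, and the shorter was used. The RefSeq span overlaps Rn18s-rs5, a pseudogene related to 18S ribosomal RNA, and the GENCODE span ends before the RefSeq span starts. The part of ribosomal DNA reads in this ratio was not tested. Yam1, for which no annotation was found, held 106 and 301 for total Pol II and 147 and 364 for Ser5P, a similar separation. Its promoter held 58.4 and 290, and 202 and 428, with intervals of 0.09 to 5.55 and -0.28 to 2.64.

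In RefSeq, Sfi1 and Pisd-ps1 overlap by 96 bases on chromosome 11, and Drg1 starts 46560 bases beyond the end of Sfi1. Sfi1 encodes a centrin-binding protein of the centrosome and was the member with the most reads, about 847 and 1525 for total Pol II and 906 and 1376 for Ser5P. Its body signal was 132 in SCR against 237 in shRPAP1 for total Pol II, while Ser5P gave 141 and 214. Both shRPAP1 values were higher, by log2 ratios of 0.85 (0.73 to 0.97) and 0.60 (0.48 to 0.73). Its promoter held 464 and 247, and 845 and 585, with intervals that included 0 (-2.19 to 0.43 and -1.44 to 0.34).

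Pisd-ps1, a pseudogene of phosphatidylserine decarboxylase, held 88.1 and 143 for total Pol II and 223 and 211 for Ser5P, so it was higher with total Pol II alone (0.70, interval 0.15 to 1.29). Drg1, which encodes a GTP-binding protein, held 89.4 and 82.4, and 95.5 and 87.0, with intervals that included 0 (-0.46 to 0.22 and -0.46 to 0.20). The length of Drg1 is uncertain: RefSeq gives 16558 bases and GENCODE 79056, and the shorter was used for the intervals. Of their sampled words, 14% in Sfi1, 61% in Pisd-ps1 and 12% in Drg1 occurred more than once.

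All 4 eligible genes of the multi-copy testis and placenta families were members (against 1.4% of all genes). They were Speer7-ps1, a pseudogene of the spermatogenesis-associated glutamate-rich family, the homeobox gene Rhox2e, the prolactin family gene Prl2c3, and Gmcl1l, a relative of germ cell-less. Each was higher in shRPAP1 with both antibodies, and their median log2 ratios were 0.52 and 0.76. With receptor genes set equal the medians were -0.30 and -0.03, and of the 8 ratios that of Rhox2e with Ser5P (0.15) stayed above 0. With the mean receptor signal subtracted from each library, 2 of the 4 remained.

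Speer7-ps1 held 74.5 in SCR against 118.5 in shRPAP1 for total Pol II, while Ser5P gave 55.0 and 95.3. Both intervals lay above 0 (0.67, 0.44 to 0.90, and 0.79, 0.53 to 1.06), and both ratios were below 0 with receptor genes set equal (-0.15 and -0.0089). Rhox2e held 56.8 and 76.8, and 45.6 and 88.7. Its ratio was 0.43 (-0.04 to 0.91) with total Pol II and 0.95 (0.47 to 1.47) with Ser5P, and its SCR promoter was at the lowest value with total Pol II. Prl2c3 held 74.97 and 83.7, and 41.5 and 69.5, higher with Ser5P (0.74, 0.14 to 1.35; -0.06 with receptor genes set equal). Gmcl1l, whose length was not found, held 52.0 and 79.2, and 68.0 and 86.5.

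Zinc finger genes were 8 of the 88, from 178 over the SCR minimum (4.49%, against 1.4% of all). The list had medians of -0.60 and -0.79, with 92 and 130 of 178 at least 1.5-fold lower. Zfp125 is a pseudogene in GENCODE without a RefSeq match, and its repeated words were not sampled. It had the highest signal and was nearly the same in every library: 115 and 115 for total Pol II and 124 and 123 for Ser5P (intervals -0.17 to 0.19 and -0.19 to 0.15). Zfp442 was higher in shRPAP1 with Ser5P, at 47.7 and 76.3 (0.67, 0.43 to 0.93; -0.12 with receptor genes set equal), and held 55.3 and 65.0 with total Pol II. Zscan30, protein coding in RefSeq but a pseudogene in GENCODE, was higher with total Pol II, at 51.0 and 66.7 (0.39, 0.02 to 0.77, and -0.43 with receptor genes set equal). With Ser5P it held 51.0 and 63.9. Zfp433, with 99% of its words repeated, held 60.5 and 62.7, and 55.2 and 50.9. The others, Zfp369, Zfp738, Zfp945 and Zfp367, lay between log2 ratios of -0.21 and 0.32, and their intervals included 0. With the mean receptor signal subtracted, 3 of the 8 remained.

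Clone-named loci (RP23 and RP24 names) were 14 of the 88, from 270 over the SCR minimum (5.19%). This list was added after the values had been seen. Its medians were -0.85 and -0.94, with 174 and 186 of 270 at least 1.5-fold lower and 3 and 11 at least 1.5-fold higher. No length was found for the 14 members, so no interval can be given. These 14 spread widely, from -0.23 to 0.94 with total Pol II and from -0.17 to 1.28 with Ser5P. RP24-550H17.1 had the largest gap between antibodies of the 88, with 100.85 and 98.7 against 78.0 and 189. RP23-81C12.2 held 118 and 228, and 231 and 233, and RP24-317P24.2 held 105 and 140, and 72.7 and 153. The ribosomal protein pseudogenes Rpl18-ps1 and Rpl5-ps2 could not be told from equal, since each rested on about 1 to 5 read equivalents a library. All 78 eligible genes of functional cytosolic ribosomal proteins were outside the set, with medians of -1.002 and -1.27. Hist1h4f, a histone H4 gene and the member with the highest SCR signal (425 and 364, and 564 and 620), rested on about 4, 3, 5 and 5 read equivalents over a body of 383 bases.

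The remaining members were protein-coding genes of broad function, most of them close to the ratio of 0.85 that admitted them. They were grouped by hand after their values had been seen. In the mitochondrial group of 5 were the ribosomal proteins Mrps18c and Mrps26, the elongation factor gene Guf1, the long-chain acyl-CoA dehydrogenase gene Acadl and Tmem65. Their median log2 ratios were -0.0074 and -0.14. Guf1 held 50.8 and 56.9, and 47.7 and 43.2. Acadl held 61.3 and 61.6, and 59.2 and 51.7, with intervals that included 0 (-0.28 to 0.29 and -0.50 to 0.10).

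RNA processing and translation was represented by 6 genes with medians of -0.17 and -0.18. These were Clp1, an RNA kinase of cleavage and tRNA splicing, Imp3, of the U3 small nucleolar complex, the Argonaute gene Ago3, Eef1e1, of the tRNA synthetase complex, Dph5, of diphthamide synthesis, and Yae1d1. Dph5 held 50.9 and 45.2, and 51.1 and 54.5. Ago3 held 44.2 and 38.0, and 43.1 and 38.0, lower in both shRPAP1 libraries, and its total Pol II interval of -0.42 to -0.02 lay below 0.

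Chromosome, nuclear and division genes numbered 9. Besides Hist1h4f they were Anapc10 of the anaphase-promoting complex, the telomere-binding Terf1, Mzt1 of the gamma-tubulin ring, the nucleoporin gene Nup43, the lamina-associated Tmpo, the chromatin protein genes Hmga1 and Lrif1, and the Mediator subunit gene Med6. Anapc10 was higher with both antibodies, at 40.15 and 46.9, and 40.9 and 45.7, with intervals that included 0 (-0.01 to 0.46 and -0.08 to 0.40). Hmga1 held 65.7 and 82.7, and 197 and 182. Its promoter is described with the others below. Nup43 lies wholly within the span of Pcmt1, so its signal cannot be told from that of the larger gene.

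Membrane traffic and autophagy gave 4 members, with medians of -0.18 and -0.15: the small GTPase gene Rab31, the endocytic adaptor gene Eps15, the atlastin gene Atl2 and Gabarapl2, of the autophagosome. Eps15 held 42.5 and 36.6, and 41.4 and 35.95, and was lower with both antibodies beyond counting error (-0.22, -0.41 to -0.02, and -0.20, -0.40 to -0.01). Rab31 held 40.2 and 34.4, and 41.8 and 38.9, and its total Pol II interval of -0.41 to -0.04 lay below 0. The 5 metabolic genes Abhd5, Pgm1, Nudt1, Chst14 and Mdp1 had medians of -0.06 and -0.08. Abhd5, the co-activator of adipose triglyceride lipase, held 42.0 and 40.2, and 42.5 and 40.2.

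A further 17 members fell in no group. Fam135a held 59.7 and 60.15, and 42.8 and 51.5, equal with total Pol II and higher with Ser5P (0.26, 0.07 to 0.46; -0.53 with receptor genes set equal). Ccdc122 held 43.4 and 51.3, and 45.0 and 49.5, higher with total Pol II (0.24, 0.03 to 0.45; -0.58 with receptor genes set equal). The zinc transporter gene Slc30a4 held 62.1 and 62.8, and 50.5 and 64.0, the only member of 62 eligible solute carriers. Tiparp, a target of the aryl hydrocarbon receptor, held 69.3 and 62.9, and 65.0 and 61.5. Angptl6, an angiopoietin-like factor, held 59.4 and 61.6, and 122 and 120.97. The long gene Ccdc88a, which encodes girdin, held 50.8 and 45.5, and 41.7 and 41.7. Its total Pol II interval of -0.31 to -0.0044 lay below 0. Dcaf6 held 50.5 and 46.5, and 42.9 and 42.5. The others were Ccr10, Spag8, Eid2b, Prkrir, Tmem69, Slk, Ccdc50, Etohi1, Nfxl1 and Ylpm1, whose intervals included 0 with both antibodies.

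Several pathways had no member at all. None came from 35 eligible fibroblast and mesenchymal genes (medians -1.33 and -1.46), 28 actin and SRF targets (-1.31 and -1.46) or 26 immediate early genes (-1.25 and -1.24). Nor did any come from 21 genes of an NF-kB, chemokine and cytokine list (-0.95 and -1.20), 19 p53 targets (-0.98 and -1.08) or 33 splicing factors (-0.82 and -0.90). Among 12 heat shock genes, 12 glycolysis genes, 14 genes of cholesterol and fatty acid synthesis and 22 genes of Pol II subunits, pausing and elongation there was likewise none. At a share of 1.4%, an average list of this size would hold less than 1 member.

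Promoters were not read by the rule. Where a member's SCR promoter held at least 5 read equivalents, it was mostly lower in shRPAP1, as at other genes. With total Pol II, 32 of 45 such members were at least 1.5-fold lower (71.1%, against 81.6% of 4476 genes) and none was 1.5-fold higher (0.246% of genes). Their median log2 ratio was -1.20, against -1.22. With Ser5P, 42 of 59 were lower (71.2%, against 84.1% of 5277 genes) and 3 were higher (0.227% of genes), Yam1, RP24-550H17.1 and Rsad2. The median was -0.77, against -1.08. Of 42 members measured with both antibodies 26 were lower with both, against 70.3% of 4409 genes. These filters use the SCR library, which also stands in the ratio.

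Drg1, whose RefSeq and GENCODE lengths differ, is 1 member with a lower promoter. The rule held both body ratios of every member at 0.85 or more, so a contrast with a lower promoter follows from the selection. Its promoter held 616 and 231 for total Pol II and 1563 and 625 for Ser5P, while its body ratios were -0.12 and -0.13. Dcaf6 held 636 and 218, and 844 and 242, at its promoter, and Abhd5 held 634 and 254, and 1311 and 808. Their intervals lay below 0, except that of Abhd5 with Ser5P (-1.42 to 0.03). Hmga1 was the only member of the 42 whose promoter kept a ratio of at least 0.85 with both antibodies (0.59% of genes), at 338 and 317, and 779 and 825. The promoter was at the lowest value in SCR for 10 members with total Pol II and 3 with Ser5P.

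**Figure D4:**
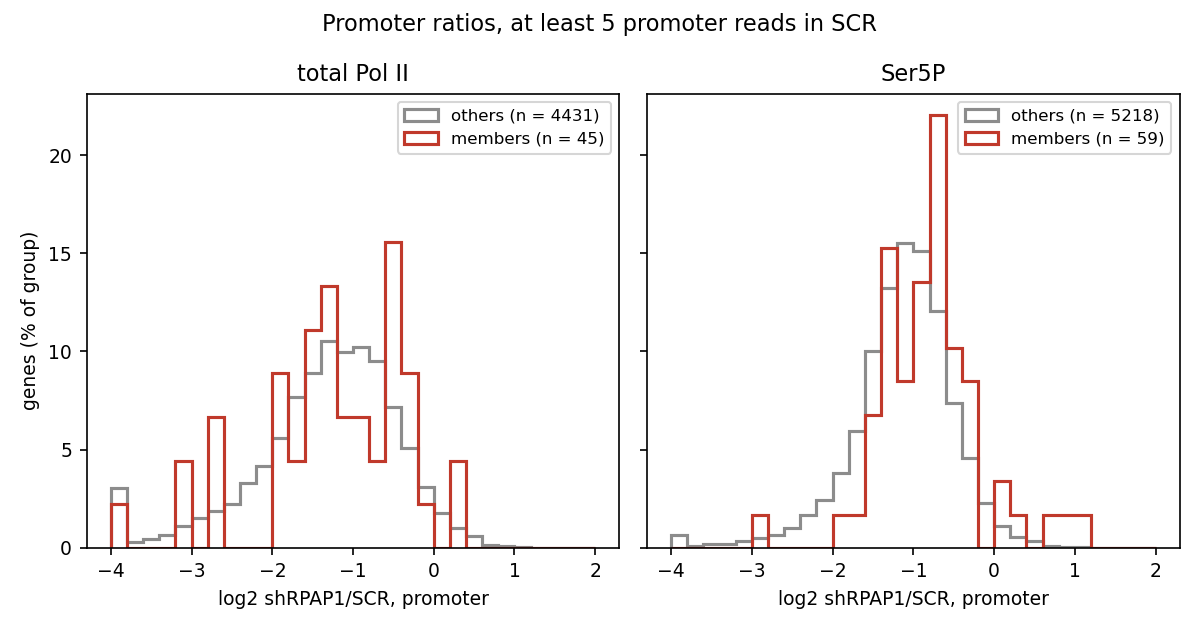
Share of genes (y axis, % of group) by promoter log2 ratio of shRPAP1 over SCR (x axis) with total Pol II (left) and Ser5P (right), members in red and other genes in grey, for promoters with at least 5 read equivalents in SCR. Members centre on -1.20 and -0.77 and all 4476 and 5277 genes, members included, on -1.22 and -1.08, on the deposited scale. Over all 88 members, with no read filter, the medians are -0.57 with total Pol II and -0.81 with Ser5P. Relative to the median of all eligible promoters, those become 0.53 and 0.23.

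Repeated sequence was more common in members. Of 100 words of 32 bases sampled along each gene, a median of 12% occurred more than once in the genome in 71 members, against 5% in 5884 other genes. More than 50% of words were repeated in 10 members (14.1%), against 2.57% of the others. Those 10 were Zfp433 (99%), Rhox2e (95%), Prl2c3 (88%), Speer7-ps1 (85%), Etohi1 (78%), Rpl5-ps2 (74%), Zfp442 (68%), Pisd-ps1 (61%), Rpl18-ps1 (58%) and Hist1h4f (53%). By contrast Hmox1, Chac1 and Rsad2 had 3% each, Fth1 and Lgals3 2%, Sqstm1 5% and Tiparp 1%. How reads with several places of origin were counted is not given in the sources used here, and the part of repeats in these ratios was not tested. The share of members annotated as protein coding was 73.9%, against 91.6% of the 6304 genes, and 19.3% had no RefSeq match, against 5.49%. Of 71 members with coordinates, 30 overlapped another gene, Nup43 over its whole span.

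**Figure D5:**
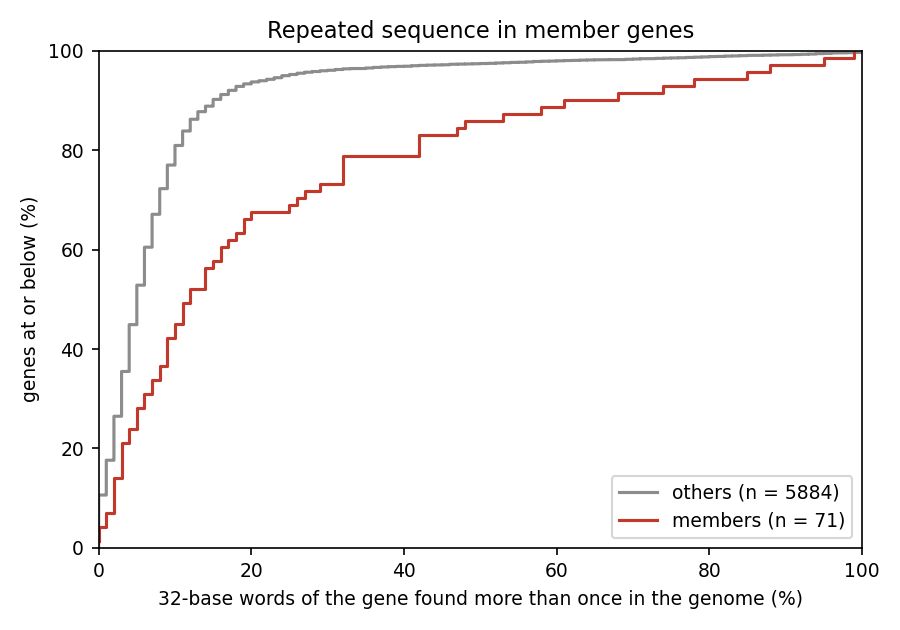
Cumulative share of genes (y axis, %) by the percentage of 100 sampled 32-base words found more than once in the genome (x axis), for 71 members in red and 5884 other genes in grey. The members' line runs below that of the others, with medians of 12% and 5%, and 10 members lie beyond 50%.

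Promoter sequence was described by letters and composition. A RefSeq promoter was matched for 54 members and 4712 other genes, and the search covered both strands. The response element core was found in 3 members (5.56%), Rsad2, Trim30a and Mrps18c, against 3.33% of the others and 3.52% of all 27025 promoters. TGATGNAA was found in 2, Chac1 and Eps15 (3.70%, against 2.33% and 4.07%). TGACNNNGC, the core of the antioxidant response element, was found in 6 (11.1%, against 15.004% and 12.4%), and TGACGTCA in 1 (1.85%, against 3.80% and 1.78%). CCAAT was found in 24 (44.4%, against 39.0% and 37.8%), TATAAA in 6 (11.1%, against 8.15% and 14.1%) and GGGCGG in 33 (61.1%, against 67.3% and 35.6%). Counted from 0 at the annotated start, the match of Rsad2 lies at -120 to -111, that of Trim30a at -36 to -27 and that of Chac1 at -193 to -186. A CCAAT match of Chac1 shares 1 base with a GGGCGG match. The median G and C content was 60.7% in members and 61.7% in the others, and an observed over expected CpG ratio of at least 0.6 was found in 66.7% and 77.4%. A match is a description of letters and not a bound site.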

How the data were processed

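Pol II ChIP-seq from mouse embryonic fibroblasts was used: 1 library each of SCR and shRPAP1 with antibodies to total Pol II (N-20) and Ser5P (ab5131). The deposited values are signal (coverage), 1 for the promoter and 1 for the body of each gene, per the file headers. Tools named in the submitters' processing notes are MACS2 2.0.10.20130712, bedtools 2.23.0, SAMtools 0.1.16 and FastQC, and the build is GRCm38 (mm10). Aligner, read filters, input correction and depth scaling: not given in the sources used here. In the 2 shRPAP1 ChIP samples the free text speaks of the SCR control, but title, treatment and hairpin give the knockdown, which was followed.

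Of 36230 rows, 58 were exact repeats and were dropped. Names left out numbered 14630. The log2 ratios are of signal plus 0.33 over gene bodies and 0.72 at promoters, the 5th percentiles of all values, which understates changes of low values, and the rule was applied to values without it. Promoter values rise in steps of 0.721, of which a read of 40 bases was taken to give 40, so a read is worth 28.9 at a promoter, from the values. Gene body read equivalents rest on the shorter of RefSeq and GENCODE vM21 lengths less 300 bases, and a scale that fitted 42.3% of 2894 genes at the lowest value. They are approximate, and for 12 members the 2 lengths differed by over 20%. Promoter signal was worth about 129630 and 71273 reads with total Pol II (SCR, shRPAP1), and 290737 and 156197 with Ser5P. Intervals are exact Clopper-Pearson intervals at 95% and cover counting error only.

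With 1 library a group no test was made. Named genes were the 25 members with the highest smaller log2 ratio and the 10 with the highest SCR signal among those with 20 read equivalents, up to 3 per list, those 3 on either side of each threshold, and Rpap1; others are named after their values were seen. A withheld item is not reported here. The members and lists were chosen with earlier results of these data known. The role groups and the descriptions of repeated words, motifs and low promoter reads were chosen after the values were seen. RefSeq matched 67 members by symbol and 4 by an older symbol. Python 3.11.15, numpy 2.4.6, pandas 2.3.3, scipy 1.17.1, numba 0.67.0 and matplotlib 3.10.9 were used, and steps were tested on simulated data. A first criterion for the counting intervals, applied to each simulated group alone, was missed in 1 group. It was then replaced by a looser one on coverage pooled over all groups of that test, which was met with the same seed.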

Additional observations from a re-analysis of the deposited data

How the results depend on the processing

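No paired analysis was possible because each group is 1 library and no test was made. The number of members, 88, depends on every threshold and on scaling. It was 311 at a ratio of at least 0.75, 30 at a ratio of at least 1, 268 and 25 at SCR minimums of 30 and 60, and 494 and 265 with total Pol II or Ser5P alone. It was 3763 with the median ratio of eligible gene bodies set to 1, 5 with receptor background set equal, and 32 with mean background subtracted. All of the 88 were among the 3763. Each of these settings changes a threshold or an antibody of the rule, or the values to which the rule is applied.

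Under those first 2 scalings the members' median log2 ratio for total Pol II was 0.71 and -0.82, and that for Ser5P 0.89 and -0.81. With Ser5P it was -0.089 both with 20 read equivalents required and with members of at most 50% repeated words, the latter setting chosen after the data were seen. Over all 88 members, with no promoter read filter, the promoter medians were -0.57 with total Pol II and -0.81 with Ser5P. They turned to 0.53 and 0.23 when the median of eligible promoters was set to 1, and were -1.37 and -1.40 with background equal. List counts moved for zinc fingers (3), histones (0) and multi-copy families (2) with mean background subtracted, also chosen after the data were seen, and for histones (0) with 20 read equivalents.

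Over the 64 genes named by rule, ratios above 0 turned negative with background equal at 30 of 32 with total Pol II and 25 of 29 with Ser5P. With the median set to 1, all 27 and 32 ratios below 0 turned positive. With mean background subtracted, 13 and 5 turned negative. Among ratios whose counting interval left out 0, those that turned with background equal were Speer7-ps1 (-0.15 and -0.0089), total Pol II at Zscan30 (-0.43), Ccdc122 (-0.58) and Pisd-ps1 (-0.12), and Ser5P at Sfi1 (-0.20), Zfp442 (-0.12), Prl2c3 (-0.059), Rsad2 (-0.36), Fam135a (-0.53) and Ifi204 (-0.44). With the median set to 1 they were Sqstm1 with Ser5P (0.71), Eps15 (0.49 and 0.70), and total Pol II at Ccdc88a (0.55), Glce (0.47), Rab31 (0.49) and Stam (0.47).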
